A study of Homo sapiens with 12 samples.

Results

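Collagen genes were followed through RNA-seq libraries of the established glioblastoma lines LN229 and U251 (human) after XRN2 siRNA, a control siRNA or mock transfection. The members are the genes of biotype protein_coding whose name has the form COL, number, A, number, so each encodes a collagen alpha chain. The rule found 44 genes among the 58174 in the deposited tables. The groups are LN229 XRN2 siRNA, LN229 control siRNA, LN229 mock, U251 XRN2 siRNA, U251 control siRNA and U251 mock, with 2 libraries each and 12 in all. RNA was taken 72 hours after reverse transfection. LN229 was kept in DMEM with 5% serum (FBS) and U251 in EMEM with 10%, so the line and the medium cannot be told apart. Nothing in the labels ties the replicates to separate cultures. The p-values therefore rest on the spread between samples that could be technical repeats. The lines hold no stroma of a tumour, and in such bulk RNA fewer cells of a kind and less RNA per cell cannot be told apart.

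Collagens are the main structural proteins of the extracellular matrix, and 3 alpha chains wind into each triple helix. Fibrillar collagens (types I, II, III, V, XI, XXIV and XXVII) build the banded fibrils, with type V and XI chains known to start and limit fibril growth. FACIT collagens decorate fibrils through interrupted helices, type IV forms the sheet of basement membranes, and type VI forms beaded filaments around cells. In brain, basement membranes of vessels hold most of the collagen of healthy tissue, and glioma cells are known to lay down collagen of their own. XRN2 is a nuclear 5′-to-3′ exoribonuclease that degrades the RNA left behind polymerase II once a transcript has been cleaved at its 3′ end.

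The libraries held 4846768 to 7469052 exon reads. XRN2 itself was at 33.5 and 25.6 CPM (the usual per-library rate of exon reads, with TMM-scaled library sizes) in LN229 XRN2 siRNA libraries, against 201 to 242 CPM in the other 4 LN229 libraries. In U251 it was at 31.0 and 26.1 CPM with XRN2 siRNA, against 134 to 144 CPM in the other 4. LN229 control siRNA replicate 1 stood apart: intron reads made up 5.58% of its gene reads and 8.78% of those of replicate 2, and the longer a gene's exons, the lower replicate 1 lay relative to replicate 2 (Spearman −0.49 over 14232 genes, not independent replicates). Tested collagen genes are long, with a median exon length of 8511 bases against 4876.5 for all genes tested, and their median log2 difference of replicate 1 from replicate 2 was −0.16. A fit with an exon length offset is given with the LN229 results. In U251 mock replicate 2 a list of 12 endoplasmic reticulum stress genes summed to 33390 CPM, against 5041 CPM in replicate 1. Of 9 glioma and neural stem markers 1, PROM1, was under 1 CPM in all libraries. The astrocytic marker GFAP was at 2348 to 6893 CPM in U251 libraries and at no more than 4.31 CPM in LN229 libraries. S100B, of the same list, went the other way, at 294 to 568 CPM in LN229 libraries and 14.8 to 21.95 CPM in U251 libraries. Between the lines' controls 3 of the 8 markers tested were higher and 5 lower in LN229 (edgeR, adjusted p under 0.05). Of 8 blood cell markers 6 were under 1 CPM in every library, as were 4 of 8 endothelial, 3 of 6 epithelial and 1 of 9 fibroblast and pericyte markers. The fibroblast and pericyte list summed to 977 to 1630 CPM in U251 controls, with THY1 at 635 to 1058 CPM, PDGFRA at 289 to 514 CPM and LUM and DCN at 0 reads, and to 476 to 606 CPM in LN229 controls, with CSPG4 at 316 to 452 CPM.

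The 2 lines carried broad but different sets of collagen mRNAs. Of the 44 genes, 25 had at least 10 reads in at least 2 libraries of each line, 8 did so in LN229 alone (COL3A1, COL4A4, COL5A3, COL9A1, COL15A1, COL19A1, COL22A1 and COL28A1) and COL17A1 and COL21A1 did so in U251 alone. The other 9 were not tested: COL23A1 and COL6A5 had no read in any library, and COL2A1, COL4A3, COL6A6, COL10A1, COL20A1, COL25A1 and COL26A1 had between 1 and 49 reads over all 12 libraries. The remaining 35 passed the filter on low counts and were tested, each through whichever line held it.

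In LN229 controls (mock and control siRNA libraries together, n = 4) the highest levels per kilobase of exon belonged to COL11A1 (135.6 CPM per kb), COL6A1 (102.7), COL9A3 (98.97), COL6A2 (84.84) and COL12A1 (62.48). In U251 controls (n = 4) they belonged to COL6A1 (200.8 CPM per kb), COL1A2 (174.1), COL6A2 (169.6), COL11A1 (70.59) and COL5A1 (67.85). Across all 12 libraries the 12 highest were COL6A1, COL6A2, COL11A1, COL1A2, COL12A1, COL9A3, COL5A1, COL4A2, COL14A1, COL8A1, COL5A2 and COL18A1. Fibrillar chains held 31.4% to 34.3% of collagen exon reads in LN229 controls and 45.0% to 49.9% in U251 controls. FACIT chains held 23.1% to 26.9% in LN229 controls and 15.3% to 16.9% in U251 controls. Basement membrane chains held 11.1% to 13.4% in LN229 controls and 4.78% to 5.5% in U251 controls, while beaded filament (type VI) chains held 15.3% to 19.6% and 24.4% to 28.9%. Short-chain network collagens held 9.17% to 10.2% in LN229 controls and 0.686% to 0.835% in U251 controls. No range of the 5 classes overlapped between the lines, where 67.0% of all genes tested differed in edgeR. The shares are parts of 1 total, so they are not independent, and single genes led some classes. In LN229 controls COL8A1 was at a mean of 576.8 CPM and its class partner COL8A2 at 1.79 CPM. In U251 controls COL1A2 was at a mean of 1943 CPM, where the fibrillar sum was 3107 to 4282 CPM.

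**Figure D1:**
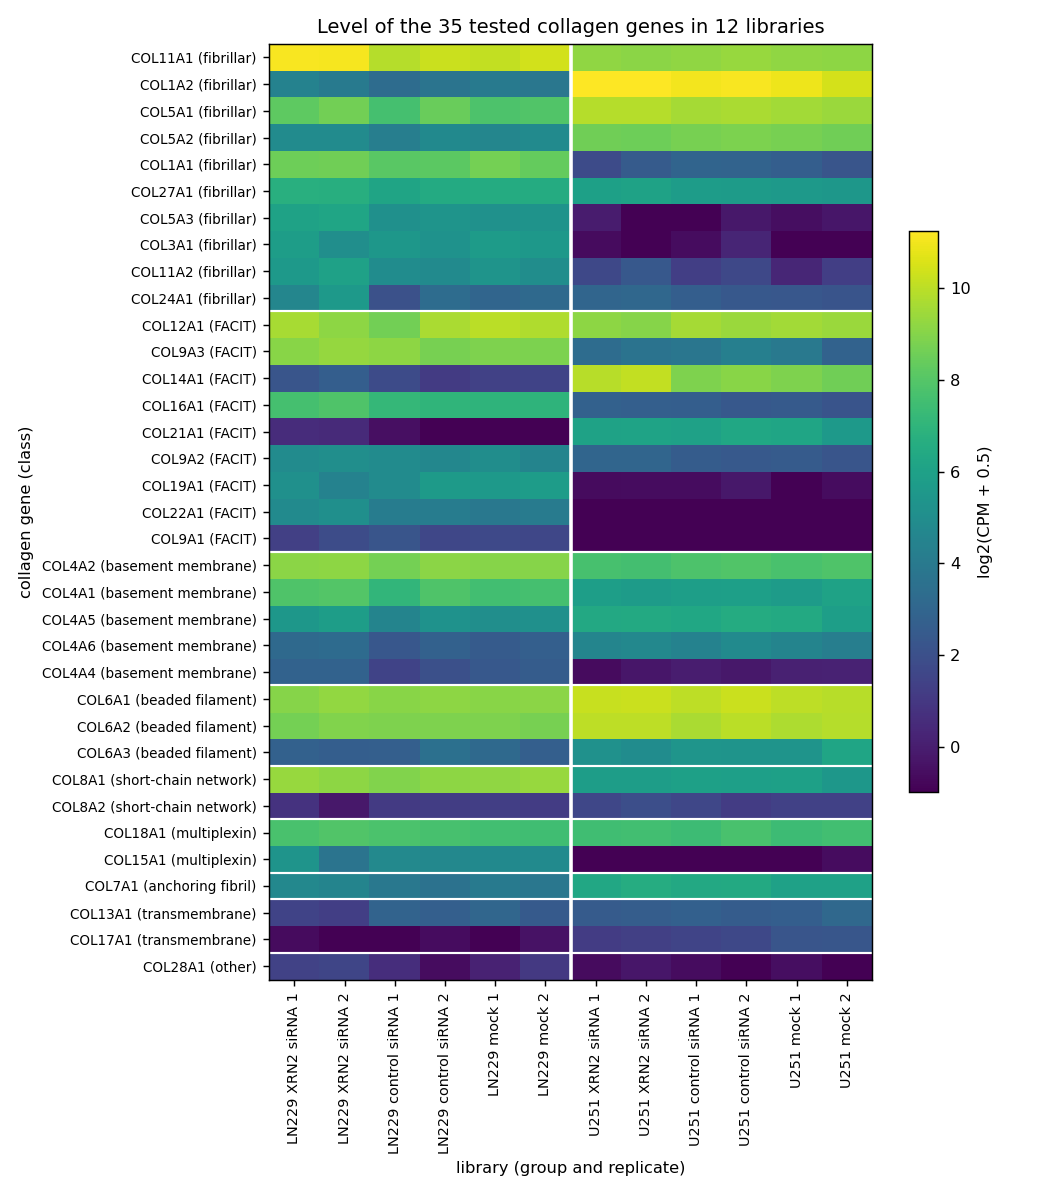
Level of each of the 35 tested collagen genes (rows, grouped by class) in the 12 libraries (columns), as log2(CPM + 0.5). COL1A2, COL14A1 and COL21A1 are brighter in U251 columns than in LN229 columns, while COL9A3, COL1A1, COL16A1 and COL22A1 are brighter in LN229 columns. COL11A1 is brightest in the 2 LN229 XRN2 siRNA columns.

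The first comparison set LN229 controls against U251 controls, to see which collagens each line makes before XRN2 is touched. In edgeR's quasi-likelihood test over 14232 genes, 18 of the 35 tested collagen genes were higher in LN229 and 12 were lower at a Benjamini-Hochberg adjusted p under 0.05. Of all genes tested, 67.0% passed, 34.9% higher and 32.1% lower, so the lines differed at most genes and the collagen counts stand against that background. Among the 25 genes covered in both lines 10 were higher and 10 lower, with log2 fold changes from −7.67 to 5.76. Coverage was counted over all 6 libraries of a line, and the 8 genes covered in LN229 alone were all higher and the 2 covered in U251 alone lower, a direction that the coverage largely sets. The median over the 35 was 0.78 and that over all genes 0.04. With library sizes in place of TMM factors those medians were 0.95 and 0.20, and 20 collagen genes were higher and 12 lower. COL12A1, COL13A1, COL18A1, COL24A1 and COL8A2 did not pass.

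The chains of type I collagen were split between the lines. COL1A1 encodes the alpha-1 chain, of which 2 join 1 alpha-2 chain, encoded by COL1A2, in the common type I molecule. COL1A1 (chromosome 17, 50183289 to 50201632, minus strand; positions here and below are those in the files, which follow GRCh38) was at 280, 284, 406 and 328 CPM in LN229 controls, against 7.16, 6.86, 5.92 and 4.19 CPM in U251 controls. COL1A2 (chromosome 7, 94394561 to 94431232, plus strand) was at 9.67, 12.4, 16.1 and 14.1 CPM in LN229 controls, against 2097, 2264, 1987 and 1422 CPM in U251 controls. The groups did not overlap for either gene and pointed in opposite directions. The log2 fold change of LN229 over U251 was 5.76 for COL1A1 (SE 0.16, adjusted p = 1.61e-11) and −7.22 for COL1A2 (SE 0.18, adjusted p = 4.79e-12). Per kilobase, COL1A1 stood at 25.9 to 32.9 times COL1A2 in LN229 controls and at 0.00335 to 0.00388 times COL1A2 in U251 controls. With XRN2 siRNA the ratio was 20.1 and 29 in LN229 and 0.00143 and 0.00245 in U251. Each line thus held 1 chain of the type I pair in large excess over the other at the mRNA level, and not the same chain.

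COL3A1, the chain of type III homotrimers, had 220 to 355 reads per library in LN229 controls and 0 to 4 reads in U251 controls. COL5A2, whose start lies 205559 bases from that of COL3A1 on chromosome 2 and on the opposite strand, was at 18.1 to 28.3 CPM in LN229 controls, against 382 to 461 CPM in U251 controls (log2 fold change −4.09, SE 0.14). COL5A1, the main chain of type V, was at 198 to 347 CPM in LN229 controls and 676 to 835 CPM in U251 controls (log2 fold change −1.57, SE 0.16). COL5A3 was at 35.3 to 39.4 CPM in LN229 controls and had 0 to 2 reads in each U251 control. The type V chains thus differed in direction: COL5A1 and COL5A2 were lower and COL5A3 higher in LN229. Per kilobase COL5A1 stood at 5.56 to 7.95 times COL5A2 in LN229 controls and at 1.13 to 1.17 times in U251 controls.

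COL11A1, a fibril-nucleating chain best known from cartilage, was high in both lines, at 932 to 1347 CPM in LN229 controls and 571 to 655 CPM in U251 controls (log2 fold change 0.94, SE 0.11). Its partner COL11A2 was at 28.1 to 39.6 CPM in LN229 controls and 0.763 to 2.64 CPM in U251 controls (4.17, SE 0.24). COL27A1, a fibrillar chain of cartilage, was at 70.7 to 92.8 CPM in LN229 controls and 44 to 53.3 CPM in U251 controls (0.78, SE 0.10). COL24A1 was low in both, at 3.63 to 9.59 CPM in LN229 controls and 4.03 to 5.73 CPM in U251 controls, and did not pass (0.64, SE 0.32, adjusted p = 0.0909).

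**Figure D2:**
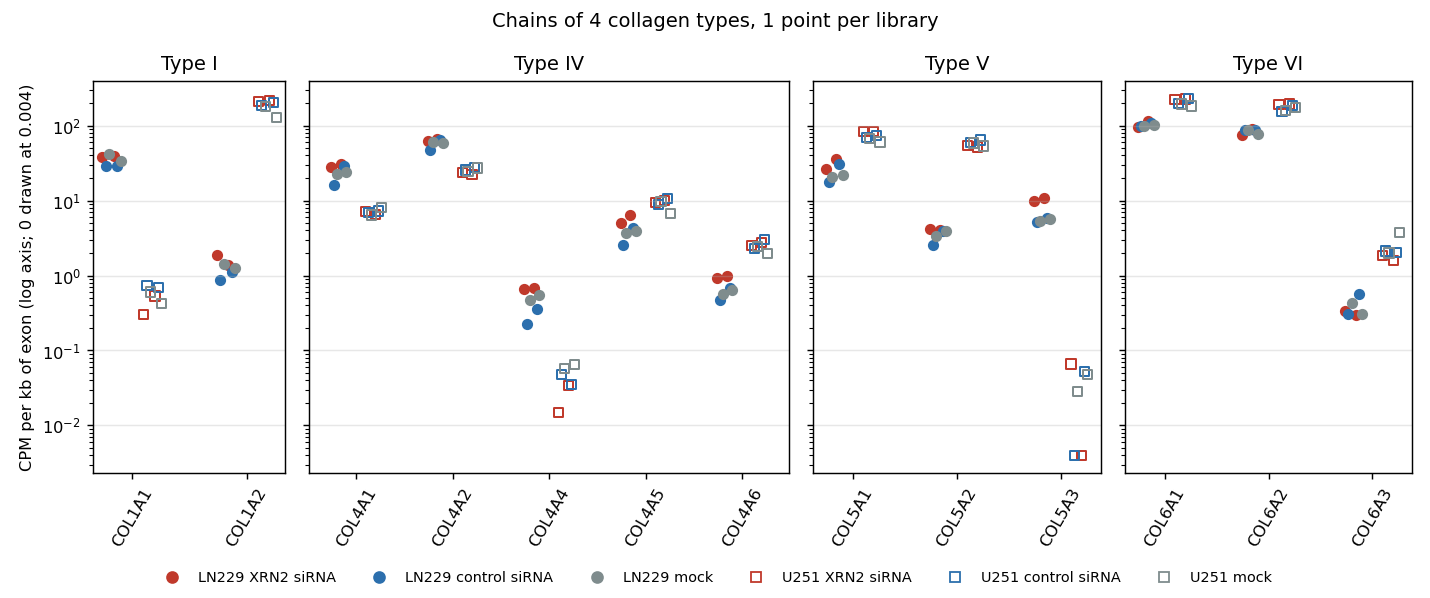
Level of the chains of types I, IV, V and VI in CPM per kb of exon on a log axis, with 1 point per library (filled circles, LN229; open squares, U251; colour, treatment). COL1A1 lies above COL1A2 in all 6 LN229 libraries and far below it in all 6 U251 libraries, while COL6A1 and COL6A2 lie close together in both lines.

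Among FACIT collagens, COL14A1 and COL21A1 belonged to U251 and most of the others to LN229. COL14A1, which binds fibrils and regulates their growth, was at 3.02, 1.68, 2.08 and 2.28 CPM in LN229 controls, against 469, 535, 474 and 380 CPM in U251 controls (log2 fold change −7.67, SE 0.18, adjusted p = 4.74e-12). COL21A1 had 1 read in the 4 LN229 controls together and 1517 reads in the 4 U251 controls, a ratio of U251 over LN229 of 1620 with an exact 95% counting interval of 291 to 64200. COL9A3, a chain of type IX, was at 573, 425, 468 and 447 CPM in LN229 controls, against 13.7, 19.2, 15.1 and 6.61 CPM in U251 controls (5.17, SE 0.22). The type IX partner COL9A2 was also higher in LN229 (2.45, SE 0.16), and COL9A1 had 73 reads in the 4 LN229 controls and none in any U251 library. Set against 3 reads over the 4 U251 controls, COL9A1 was at least 22.7-fold higher in LN229. COL22A1, known from junctions of muscle and tendon, had 409 reads in LN229 controls and none in any U251 library, so it was at least 127-fold higher by the same floor. COL16A1, at 123 to 140 CPM in LN229 controls and 4.03 to 5.73 CPM in U251 controls, had a log2 fold change of 4.73 (SE 0.13). COL19A1 had 147 to 420 reads per library in LN229 controls and 0 to 2 in U251 controls. COL12A1, at 398 to 1000 CPM in LN229 controls and 672 to 779 CPM in U251 controls, did not differ past the threshold (0.09, SE 0.19).

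The basement membrane chains split by gene pair. The 6 type IV genes lie as 3 head-to-head pairs that share the stretch between their starts, which are 1337 bases apart for COL4A1 and COL4A2, 347 for COL4A5 and COL4A6 and 452 for COL4A3 and COL4A4 in the files' annotation. COL4A1 and COL4A2, which form the ubiquitous type IV molecule, were both higher in LN229, at 133 to 237 CPM and 410 to 563 CPM in LN229 controls, against 52.5 to 66.6 CPM and 215 to 240 CPM in U251 controls (log2 fold changes 1.68 and 1.14, SE 0.16 and 0.11). COL4A5 and COL4A6, chains of more specialised membranes, were both lower in LN229, at 22.6 to 37.7 CPM and 4.43 to 6.39 CPM in LN229 controls, against 58.2 to 92.9 CPM and 18.4 to 28.2 CPM in U251 controls (−1.29 and −2.01, SE 0.17 each). COL4A4 was at 2.22 to 5.45 CPM in LN229 controls and had 2 to 4 reads in each U251 control, and COL4A3 had 0 to 4 reads in any control. Per kilobase, COL4A1 was at 0.345 to 0.458 times COL4A2 in the 6 LN229 libraries and 0.26 to 0.3 times in the 6 U251 libraries, and COL4A5 at 5.41 to 6.47 times COL4A6 in LN229 and 3.36 to 4.02 times in U251. As the library kit is known to keep no strand, and COL4A1 and COL4A2 overlap in the annotation, reads in their overlap cannot be assigned to either gene.

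In the 2 pairs with both genes tested, the genes differed between the lines in the same direction, and any part of the promoters in that was not tested. The shared stretches are shown because the promoter windows of both genes of a pair overlap there. They are the overlaps of the RefSeq promoter windows (250 bases before to 50 after a start, GRCh38.p14) of the paired genes, on the plus strand, with matches on either strand in capitals to the TATA box searched as TATAAA, the CCAAT box searched by those letters and the GC box searched as GGGCGG, none of which overlapped. The pair on chromosome 13 spans chr13:110307108-110307333, that on X spans chrX:108439588-108439708 and that on chromosome 2 spans chr2:227164374-227164455.
COL4A1 and COL4A2: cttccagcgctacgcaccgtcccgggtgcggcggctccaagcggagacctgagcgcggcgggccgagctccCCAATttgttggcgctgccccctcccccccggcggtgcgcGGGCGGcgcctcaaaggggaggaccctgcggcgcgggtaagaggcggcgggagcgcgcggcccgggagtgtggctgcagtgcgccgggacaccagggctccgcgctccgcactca
COL4A5 and COL4A6: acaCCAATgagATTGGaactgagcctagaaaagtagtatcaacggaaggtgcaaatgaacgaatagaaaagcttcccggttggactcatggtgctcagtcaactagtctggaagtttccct
COL4A4 and COL4A3: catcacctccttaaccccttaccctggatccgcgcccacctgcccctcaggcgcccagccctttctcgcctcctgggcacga

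The stretches were unlike in base composition, with 76.5%, 44.6% and 67.1% G and C. The stretch of COL4A1 and COL4A2 held 1 CCAAT box and 1 GC box, that of COL4A5 and COL4A6 held 2 CCAAT boxes in opposite orientation, and that of COL4A3 and COL4A4 held none of the 3 motifs. Some whole windows held more: those of COL4A3 and COL4A1 held 2 GC boxes each and the overlapping one of COL4A6 held 3 CCAAT boxes. A further window of COL4A6 lies outside the stretch and held 1 GC box. Over all 35116 windows in the table, 34.6% held a CCAAT box, 45.0% a GC box and 11.5% a TATA box. These shares do not apply to the stretches, which are 226, 121 and 82 bases long where a window has 300. Windows were found for 32 of the 44 genes, of which 12 held a CCAAT box, 21 a GC box and 7 a TATA box. A match describes these letters only.

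The remaining classes also differed by line. COL6A1 and COL6A2, neighbours on chromosome 21 and the core chains of type VI filaments, were at 534 to 577 CPM and 420 to 472 CPM in LN229 controls, against 975 to 1218 CPM and 836 to 1006 CPM in U251 controls (log2 fold changes −0.965 and −0.999, SE 0.10 and 0.11). Their ratio per kilobase was 1.03 to 1.32 across all 12 libraries. COL6A3, a longer chain of type VI, was low, at 6.04 to 11.1 CPM in LN229 controls and 39.3 to 73.7 CPM in U251 controls (−2.60, SE 0.22), and per kilobase COL6A1 was at 48.6 to 388 times COL6A3. COL8A1, a short-chain collagen of vessel walls and cornea, was at 490 to 646 CPM in LN229 controls and 44.5 to 62.2 CPM in U251 controls (3.34, SE 0.13), while its partner COL8A2 was at 1.61 to 1.92 CPM and 1.76 to 2.54 CPM. COL15A1 had 686 reads in LN229 controls and 1 read in U251 controls, a ratio of 641 with a counting interval of 115 to 25300. COL18A1, which carries the endostatin domain, was at 180 to 222 CPM in LN229 controls and 167 to 210 CPM in U251 controls and did not pass (0.12, SE 0.10). Of its exon reads 72.3% were unique, so its level is uncertain. COL7A1, the anchoring fibril chain, was at 11.6 to 15.7 CPM in LN229 controls and 63.4 to 87.1 CPM in U251 controls (−2.40, SE 0.12). COL17A1, a transmembrane collagen of epithelial hemidesmosomes, had 3 reads in LN229 controls and 79 in U251 controls, and COL13A1, a transmembrane collagen of the neuromuscular junction, was at 4.94 to 7.67 CPM and 5.45 to 8.38 CPM. COL28A1 had 1 to 12 reads in each LN229 control and 0 or 1 in each U251 control.

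**Figure D3:**
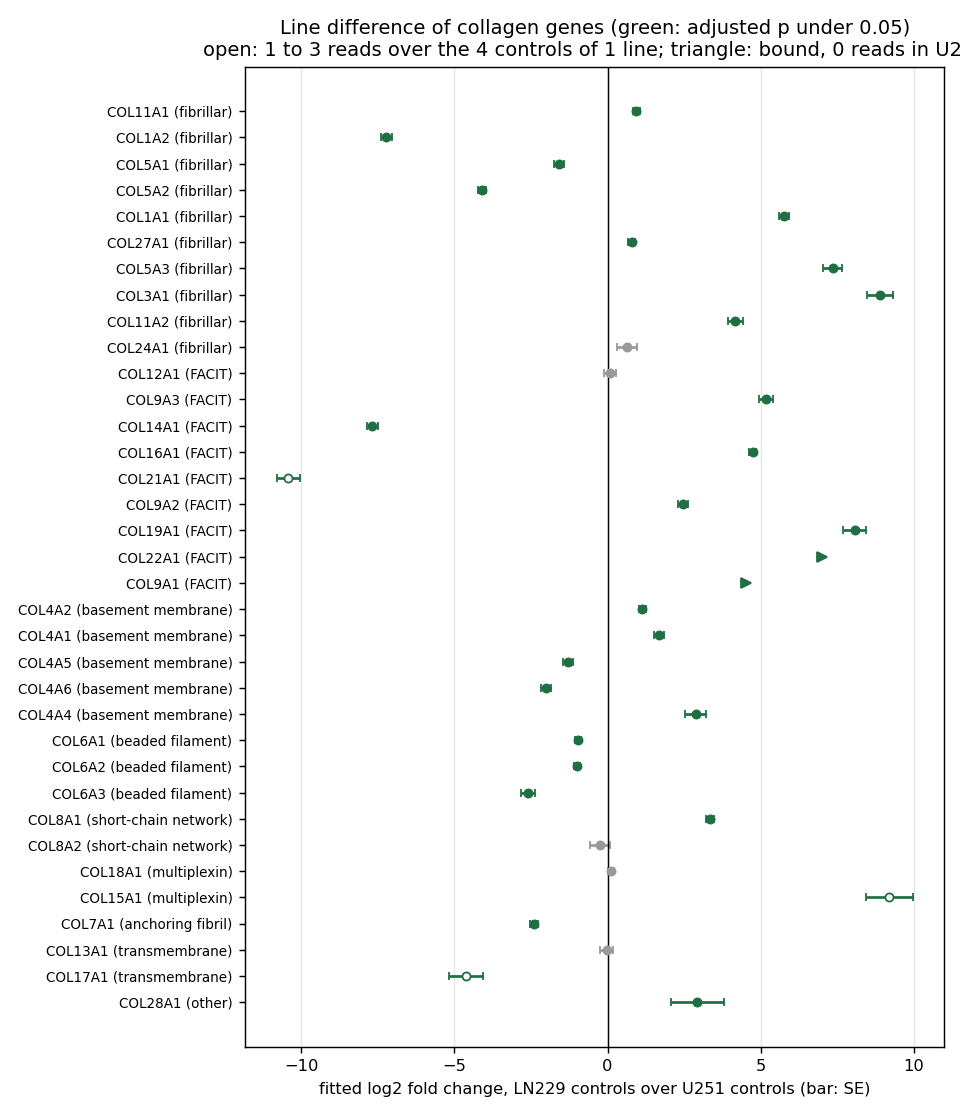
Fitted log2 fold change of LN229 controls over U251 controls for the 35 tested collagen genes by class (bars, SE; green, adjusted p under 0.05; grey, not passed). Open circles are genes with 1 to 3 reads over the 4 controls of 1 line, whose fitted value depends on the prior count, and triangles are lower bounds for COL22A1 and COL9A1; COL1A1 and COL1A2 lie on opposite sides of 0 at 5.76 and −7.22.

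The main comparison asked what happened to collagen mRNAs when XRN2 was depleted. In LN229 the abundant fibrillar chain COL11A1 rose about 2-fold, COL16A1, COL5A3 and COL7A1 rose less, the low-level COL24A1 rose more steeply and COL13A1 fell. Against control siRNA 5 of the 35 tested collagen genes rose and 1 fell, against 3.16% of all genes tested in either direction, 1.21% higher and 1.95% lower. With library sizes in place of TMM factors 7 rose and 1 fell, and the split over all genes was 277 higher and 197 lower in place of 172 and 278. Another 11 of the 35 had an unadjusted p under 0.05 without passing. With those that passed these were 17 of the 35, beside 3165 of the 14232 genes tested. The median log2 fold change was 0.36 over the 35 and 0.00 over all genes, with 28 above 0. The median over the collagen genes was 0.69 without LN229 control siRNA replicate 2, 0.27 without replicate 1 and 0.25 with the exon length offset, and 0.27 against mock. These 35 include genes that passed the filter through either line, so the counts describe the list only.

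COL11A1 (ENSG00000060718; chromosome 1, 102876467 to 103108496, minus strand) was at 2205 and 2169 CPM in LN229 XRN2 siRNA libraries, against 932 and 1238 CPM with control siRNA and 1099 and 1347 CPM in mock. Both XRN2 siRNA libraries lay above all 4 others. Its log2 fold change was 1.01 against control siRNA (SE 0.16, adjusted p = 0.0132) and 0.84 against mock (SE 0.16, adjusted p = 0.0293). COL24A1 (ENSG00000171502; chromosome 1, 85729233 to 86156943, minus strand), a fibrillar chain of developing bone, was at 24.0 and 49.3 CPM with XRN2 siRNA, against 3.63 and 9.59 CPM with control siRNA and 7.51 and 8.62 CPM in mock. The XRN2 siRNA libraries differed from each other but did not overlap with the controls, and the log2 fold change was 2.43 (SE 0.38, adjusted p = 0.0132), or 2.17 against mock (SE 0.36, adjusted p = 0.0168). COL16A1 (ENSG00000084636; chromosome 1, 31652247 to 31704319, minus strand) was at 199.7 and 232 CPM with XRN2 siRNA, against 140 and 131 CPM with control siRNA and 124 and 123 CPM in mock. Its log2 fold change was 0.67 (SE 0.13) with an adjusted p of 0.0235, and 0.80 against mock (SE 0.13) with an adjusted p of 0.0158.

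COL5A3 (ENSG00000080573; chromosome 19, 9959561 to 10010471, minus strand) was at 66.8 and 73.3 CPM with XRN2 siRNA, against 35.3 and 39.4 CPM with control siRNA and 36.4 and 38.6 CPM in mock. The change was 0.91 (SE 0.21, adjusted p = 0.0358), and mock gave 0.90, just outside the threshold (SE 0.20, adjusted p = 0.0515). COL7A1 (ENSG00000114270; chromosome 3, 48564073 to 48595267, minus strand) was at 25.5 and 22.2 CPM with XRN2 siRNA, against 14.7 and 11.6 CPM with control siRNA and 15.7 and 13.9 CPM in mock. The change was 0.87 (SE 0.18, adjusted p = 0.0251), and mock gave 0.70, which did not pass (SE 0.17, adjusted p = 0.0603). COL22A1 (ENSG00000169436; chromosome 8, 138588235 to 138914006, minus strand) was at 28.4 and 33.3 CPM with XRN2 siRNA, against 17.3 and 17.0 CPM with control siRNA and 14.4 and 16.7 CPM in mock. It passed against mock (0.98, SE 0.20, adjusted p = 0.0474) and lay just outside the threshold against control siRNA (0.84, SE 0.20, adjusted p = 0.0517). For each of these 3 genes the XRN2 siRNA libraries lay above all 4 others.

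COL13A1 (ENSG00000197467; chromosome 10, 69801931 to 69964275, plus strand) was the 1 collagen gene called lower in LN229. It was at 2.30 and 1.93 CPM with XRN2 siRNA, from 17 and 11 reads, against 6.85 and 6.05 CPM with control siRNA and 7.67 and 4.94 CPM in mock, from 34 to 48 reads. The groups did not overlap, and the log2 fold change was −1.58 (SE 0.33, adjusted p = 0.0277), or −1.54 against mock (SE 0.33, adjusted p = 0.0413). Its level was low enough that counting error is part of the spread. Of the 35 tested genes 7 were below 0 against control siRNA, the others without passing. Among them COL8A2, from 9 and 2 reads, lay below all 4 others, at 1.22 and 0.35 CPM against 1.61 to 1.92 CPM. COL19A1 was at 34.4 and 21.0 CPM, against 29.6 and 50.6 CPM with control siRNA and 49.5 and 53.2 CPM in mock.

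Against mock, 4 collagen genes rose (COL11A1, COL16A1, COL24A1 and COL22A1) and COL13A1 fell, where 1.29% of all genes passed, 0.548% higher and 0.738% lower. Both comparisons use the same XRN2 siRNA libraries and are not independent. The calls against control siRNA depended on single libraries. None of them held in every fit with 1 library left out, and the number called over all genes moved as well. Such a fit leaves 1 sample in a group, so its counts are not given. Without control siRNA replicate 2 the 1 control siRNA library left was replicate 1, the library with the length trend. The collagen median, given above for both, was 0.42 without XRN2 siRNA replicate 2. In a fit on the 6 LN229 libraries alone 0 of 33 collagen genes and 1 of 13355 genes passed. COL11A1 was at 1.03 in the 2 settings where it did not pass. With the exon length offset COL16A1 (0.51) and COL7A1 (0.67) did not pass, and COL13A1 was not called by DESeq2. Against mock no call held in every fit with 1 library left out either, and the collagen median ran from 0.24 to 0.30 over those fits.

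The promoter windows of COL11A1 and COL16A1, which rose against both controls, and of COL13A1, which fell, are shown 5′ to 3′ on the gene's strand with the same motifs in capitals. They lie at chr1:103108473-103108772, chr1:31703968-31704267 and chr10:69801656-69801955 (GRCh38.p14).
COL11A1: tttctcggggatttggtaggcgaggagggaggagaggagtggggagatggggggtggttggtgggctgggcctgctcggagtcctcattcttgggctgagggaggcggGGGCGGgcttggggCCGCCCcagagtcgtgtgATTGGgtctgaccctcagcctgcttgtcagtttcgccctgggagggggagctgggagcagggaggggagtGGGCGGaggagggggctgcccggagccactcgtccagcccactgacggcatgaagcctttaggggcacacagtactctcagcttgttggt
COL16A1: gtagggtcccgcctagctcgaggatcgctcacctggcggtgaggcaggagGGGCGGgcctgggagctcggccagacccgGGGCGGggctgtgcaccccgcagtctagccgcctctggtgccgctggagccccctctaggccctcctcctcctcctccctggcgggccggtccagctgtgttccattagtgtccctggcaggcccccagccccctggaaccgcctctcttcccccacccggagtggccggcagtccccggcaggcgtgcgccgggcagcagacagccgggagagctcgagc
COL13A1: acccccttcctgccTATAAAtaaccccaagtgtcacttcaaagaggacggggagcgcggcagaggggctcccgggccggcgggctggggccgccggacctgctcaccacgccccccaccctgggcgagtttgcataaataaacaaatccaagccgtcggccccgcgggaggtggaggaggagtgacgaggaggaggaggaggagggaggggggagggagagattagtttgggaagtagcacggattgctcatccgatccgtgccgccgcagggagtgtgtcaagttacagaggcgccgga

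The COL11A1 window held 3 GC boxes and 1 CCAAT box, the COL16A1 window 2 GC boxes, and the COL13A1 window 1 TATA box upstream. They held 66.0%, 73.7% and 64.0% G and C. COL24A1, which also rose against both controls, has 2 windows in the table and neither is printed; 1 held no motif and the other 1 GC box.

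By class, all 10 tested fibrillar genes had a log2 fold change above 0 in LN229 against control siRNA, with a median of 0.57, of which COL11A1, COL24A1 and COL5A3 passed. Against mock 9 of the 10 were above 0, with a median of 0.42, and in control siRNA against mock 9 of the 10 were below 0, with a median of −0.23. COL1A1 was at 369 and 388 CPM with XRN2 siRNA, against 280 and 284 CPM with control siRNA and 406 and 328 CPM in mock, so the mock libraries overlapped with it. COL1A2 had a value of 0.71 (SE 0.23, adjusted p = 0.103) and COL11A2 0.90 (SE 0.23, adjusted p = 0.0528). COL5A1 was at 299.6 and 403 CPM with XRN2 siRNA, against 198 and 347 CPM with control siRNA and 229 and 246 CPM in mock, and did not pass (0.36, SE 0.22). Summed over the class, fibrillar chains were at 3225 and 3324 CPM with XRN2 siRNA, against 1623 and 2113 CPM with control siRNA and 2004 and 2179 CPM in mock. Their share of collagen reads was 42.5% and 43.1% with XRN2 siRNA, against 31.4% to 34.3% in the 4 other libraries.

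The 5 tested basement membrane genes had values from 0.21 to 1.21 against control siRNA, with a median of 0.70, and none passed. COL4A4 had 49 and 39 reads with XRN2 siRNA, against 11 and 21 with control siRNA and 29 and 43 in mock (1.21, SE 0.34, adjusted p = 0.0654). COL4A5 was at 44.2 and 56.0 CPM with XRN2 siRNA, above 22.6 and 37.7 CPM with control siRNA and 32.1 and 34.7 CPM in mock (0.72, SE 0.24, adjusted p = 0.105), and COL4A6 was at 0.70 (SE 0.26). COL4A1 and COL4A2 had values of 0.38 and 0.21 (SE 0.21 and 0.16). Of 9 FACIT genes COL16A1 passed. COL12A1, a fibril-associated chain, was at 807 and 572 CPM with XRN2 siRNA, against 398 and 830 CPM with control siRNA and 999.6 and 892 CPM in mock. COL9A3 was at 539 and 638 CPM with XRN2 siRNA, against 573 and 425 CPM with control siRNA and 468 and 447 CPM in mock, and the groups overlapped. COL14A1 had 31 and 33 reads with XRN2 siRNA, against 15 and 10 with control siRNA and 13 and 18 in mock (1.09, SE 0.33, adjusted p = 0.0812). Type VI chains lay near 0, with COL6A1 at 0.02 (SE 0.14) and COL6A2 at −0.06 (SE 0.15), as did COL18A1 at 0.08 (SE 0.14) and COL8A1 at 0.21 (SE 0.16).

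**Figure D4:**
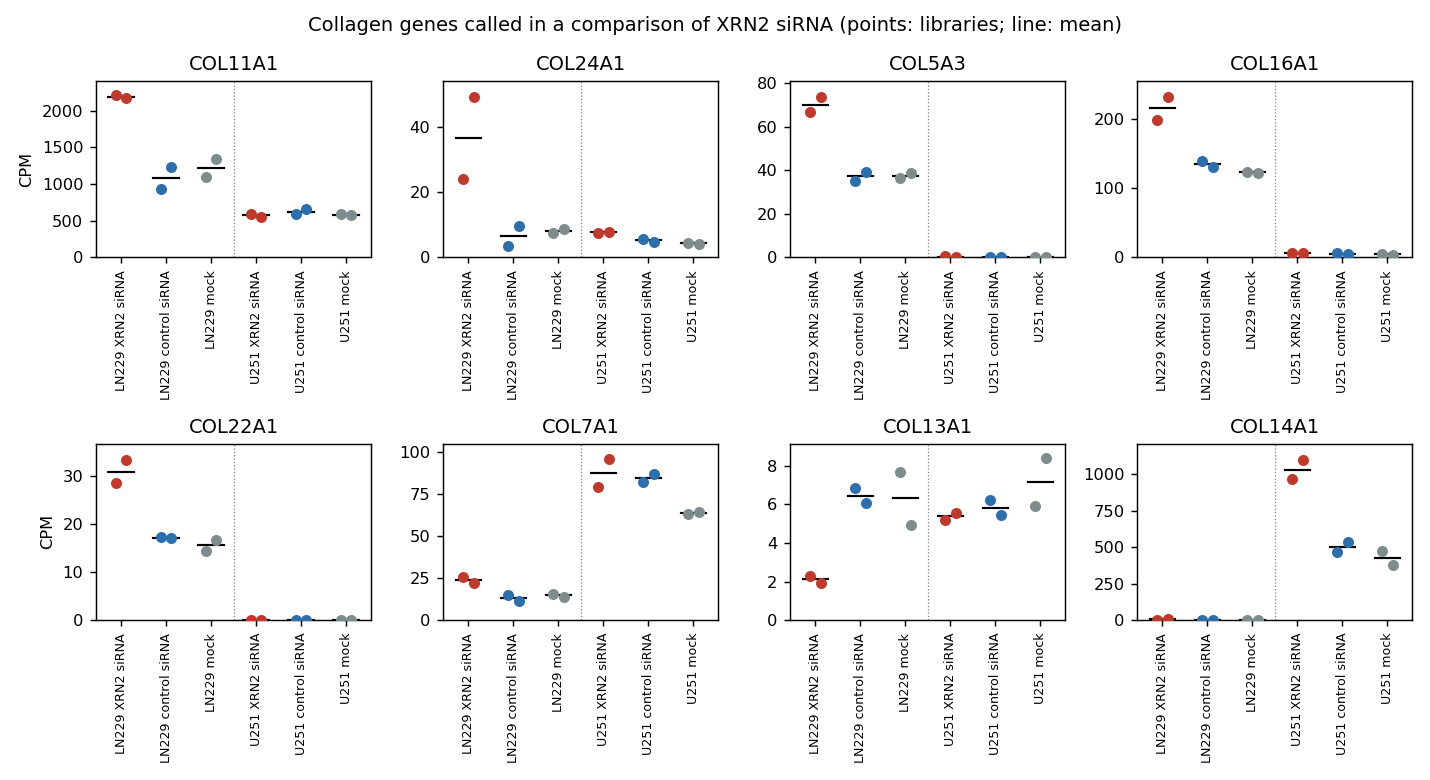
Level in CPM (linear axes) of the 8 collagen genes called in a comparison of XRN2 siRNA, with 1 point per library and a line at the group mean, LN229 left of the dotted line and U251 right of it. COL11A1 stands at 2205 and 2169 CPM in LN229 XRN2 siRNA libraries and at 554 to 655 CPM in all 6 U251 libraries, and COL14A1 stands at 966 and 1098 CPM in U251 XRN2 siRNA libraries.

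All collagen genes together took 0.826% and 0.869% of exon reads in LN229 XRN2 siRNA libraries, against 0.529% and 0.664% with control siRNA and 0.669% and 0.671% in mock. In U251 they took 0.837% and 0.860% with XRN2 siRNA, against 0.745% and 0.803% with control siRNA and 0.725% and 0.644% in mock. The XRN2 siRNA libraries lay above the 4 others in each line. As TMM-scaled sums they stood at 7584 and 7720 CPM with XRN2 siRNA, against 5164 and 6325 CPM with control siRNA and 6299 and 6348 CPM in mock in LN229, and at 8919 and 9083 CPM, against 7926 and 8656 CPM and 7745 and 6906 CPM in U251. Without COL11A1 the LN229 sums were 5379 and 5552 CPM with XRN2 siRNA, against 4233 to 5200 CPM in the 4 others. Without COL14A1 the U251 sums were 7954 and 7986 CPM with XRN2 siRNA, against 6527 to 8121 CPM, and overlapped. These 2 genes were left out after their values were seen. Intron reads took 5.54% and 5.65% of collagen gene reads in LN229 XRN2 siRNA libraries, against 4.24% to 6.54% in the 4 others, and 3.58% and 3.86% in U251, against 3.58% to 5.05%.

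In U251 the gene that stood out was COL14A1 (ENSG00000187955; chromosome 8, 120059780 to 120372036, plus strand). It was at 966 and 1098 CPM with XRN2 siRNA, against 469 and 535 CPM with control siRNA and 474 and 380 CPM in mock, and the XRN2 siRNA libraries lay far above all 4 others. Against mock its log2 fold change was 1.27 (SE 0.17) with an adjusted p of 0.0151, and it was the 1 collagen gene to pass where 0.0492% of all genes passed. Against control siRNA the value was 1.04 (SE 0.17) and did not pass in edgeR (adjusted p = 0.0944). In that comparison 0 of 35 collagen genes passed and 0.00703% of all genes did, which is XRN2 alone. Without adjustment COL14A1 and COL1A1 were under 0.05, beside 553 of the 14232 genes tested, and COL14A1 passed in DESeq2. The call against mock was lost without U251 mock replicate 2, the library with high stress genes, although the value was then 1.12 or more in each alternative, and without either LN229 mock, either U251 control siRNA or either U251 XRN2 siRNA library. COL14A1 also had 31 and 33 reads in LN229 XRN2 siRNA libraries, above the 10 to 18 reads of the other 4.

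Apart from COL14A1, no abundant collagen of U251 passed with XRN2 siRNA. COL1A2 was at 2357 and 2426 CPM with XRN2 siRNA, against 2097 and 2264 CPM with control siRNA and 1987 and 1422 CPM in mock (log2 fold change 0.13 against control siRNA, SE 0.18). COL6A1 was at 1186 and 1210 CPM, against 1057 and 1218 CPM and 1042 and 975 CPM (0.08, SE 0.14), and COL5A1 at 934 and 936 CPM, against 773 and 835 CPM and 752 and 676 CPM (0.22, SE 0.22). COL12A1 was at 575 and 521 CPM, below the 672 to 779 CPM of the 4 others (−0.41, SE 0.27), and COL5A2 at 386 and 370 CPM, against 422 and 461 CPM with control siRNA and 421 and 382 CPM in mock (−0.22, SE 0.17). COL11A1 was at 589 and 554 CPM with XRN2 siRNA, against 591 and 655 CPM with control siRNA and 587 and 571 CPM in mock (−0.12, SE 0.16). COL1A1, low in U251, had 20 and 31 reads with XRN2 siRNA, against 45 and 39 with control siRNA and 31 and 26 in mock (−0.79, SE 0.28, adjusted p = 1). All 5 tested basement membrane genes had values below 0 against control siRNA, with a median of −0.07.

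**Figure D5:**
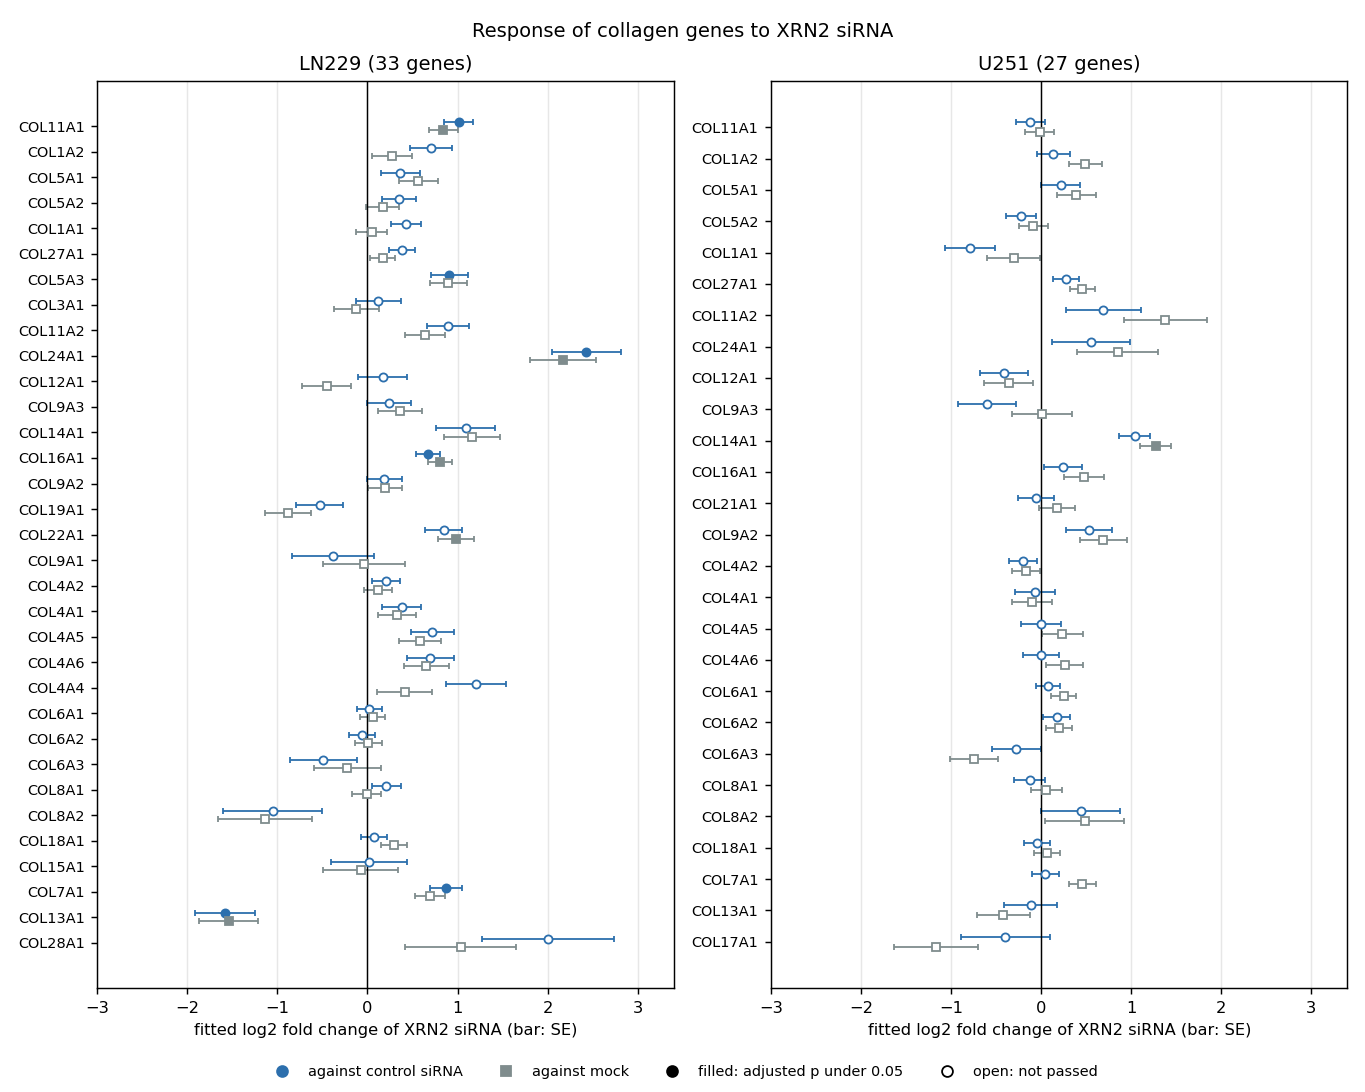
Fitted log2 fold change of XRN2 siRNA against control siRNA (blue circles) and against mock (grey squares) for collagen genes with a mean of at least 1 CPM over the line's 6 libraries, 33 in LN229 and 27 in U251 (bars, SE; filled, adjusted p under 0.05). In LN229 COL11A1, COL16A1, COL24A1 and COL13A1 are filled against both controls, and in U251 the 1 filled point is COL14A1 against mock.

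No collagen gene passed the test of the difference between the lines' responses to XRN2 siRNA against control siRNA, nor did any gene (0% of 14232). Without adjustment 9 of 35 collagen genes were under 0.05, beside 945 of the 14232 genes tested. In DESeq2 1 collagen gene passed, beside 9 higher and 6 lower of all genes. COL11A1 had the smallest p, with a response higher by 1.14 in LN229 than in U251 (SE 0.23, adjusted p = 0.411), followed by COL1A1 at 1.22 (SE 0.32, adjusted p = 0.586). That a gene was called in LN229 and not in U251 is thus not shown to be a difference. In LN229 both XRN2 siRNA libraries lay above the 4 controls for 15 of 35 collagen genes and below them for 2, where 15.9% of all genes lay above and 16.9% below. In U251 they lay above for 9 and below for 5, where 13.8% lay above and 10.6% below. COL11A2, COL14A1, COL16A1, COL24A1 and COL27A1 lay above in both lines, where 4.52% of all genes did so, and no collagen gene lay below in both, where 4.39% did. Among them COL16A1 was at 6.38 and 6.07 CPM in U251 XRN2 siRNA libraries, against 4.03 to 5.73 CPM, and COL27A1 at 61.7 and 66.6 CPM, against 44 to 53.3 CPM.

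Control siRNA against mock compares transfection of an siRNA with mock transfection, both without XRN2 depletion. In neither line did a collagen gene pass in edgeR (0% of all genes in LN229 and 0% in U251). The LN229 comparison holds the control siRNA library with the exon length trend, and the U251 comparison holds the mock library with high stress genes. Such libraries widen the spread, so the lack of calls does not show that siRNA transfection had no effect. In LN229 COL4A4, COL12A1 and COL1A1 had an unadjusted p under 0.05, beside 647 of the 14232 genes tested. In U251 COL7A1 did, beside 682, at 82.4 and 87.1 CPM with control siRNA against 63.4 and 64.2 CPM in mock. DESeq2 also called none in either line.

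Genes of collagen modification, folding and binding were set beside the chains. In LN229, of 14 prolyl and lysyl hydroxylases and collagen glycosyltransferases 2 fell against control siRNA and none rose, where 1.95% of all genes fell and 1.21% rose. P3H3, a member of the prolyl 3-hydroxylase family, was at 54.7 and 54.1 CPM with XRN2 siRNA, against 102 and 77.4 CPM with control siRNA and 77.2 and 72.7 CPM in mock (log2 fold change −0.72, SE 0.15). COLGALT1, which adds galactose to hydroxylysine, was at 108 and 91.2 CPM with XRN2 siRNA, against 151 and 172 CPM with control siRNA and 149 and 169.7 CPM in mock (−0.69, SE 0.15), and it also fell against mock. P4HB, the shared subunit of prolyl 4-hydroxylase and the most abundant of the list, was at 1561 and 1388 CPM with XRN2 siRNA, against 1952 to 2385 CPM in the 4 others, without passing. Summed, the list was at 3255 and 3461 CPM in LN229 XRN2 siRNA libraries, against 4181 to 4727 CPM in the 4 others. In U251 none of the 14 passed.

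Of 10 tested genes of collagen folding and export 1 rose, SPARC, a collagen-binding matricellular protein, against mock (0.548% of all genes rose there), at 2694 and 2887 CPM with XRN2 siRNA, against 2161 and 2326 CPM with control siRNA and 1496 and 1644 CPM in mock. None of 5 tested genes of propeptide processing, 7 of cross-linking and 4 of collagen degradation passed in an XRN2 siRNA comparison of either line. SERPINH1, the collagen chaperone HSP47, was at 562 to 812 CPM in LN229 controls and 58.2 to 75.4 CPM in U251 controls, PCOLCE, the enhancer of procollagen C-proteinase, at 363 to 542 CPM and 2.42 to 3.70 CPM, and the gelatinase MMP2 at 1813 to 2349 CPM and 141 to 150.4 CPM. Of 8 tested collagen receptors 1 rose and 1 fell against control siRNA and 1 fell against mock, beside the shares of all genes given above. ITGB1, the beta-1 integrin chain, fell in LN229 to 551 and 284 CPM with XRN2 siRNA, against 959.5 and 1281 CPM with control siRNA and 1154 and 1117 CPM in mock (−1.42, SE 0.24, adjusted p = 0.0141). ITGA2, which pairs with it to bind collagen, rose against control siRNA, at 88.9 and 73.1 CPM with XRN2 siRNA, against 33.6 and 56.0 CPM with control siRNA and 66.9 and 67.0 CPM in mock (0.85, SE 0.20, adjusted p = 0.0426).

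Markers of other cell types were summed in the same libraries. In LN229 the 9 fibroblast and pericyte markers summed to 316 to 447 CPM with XRN2 siRNA, against 476 to 606 CPM in the 4 others, and 1 of the 8 tested passed: LUM, a proteoglycan that binds fibrils, fell to 43.6 and 24.3 CPM, against 89.0 and 80.6 CPM with control siRNA and 91.1 and 84.4 CPM in mock. Most of the sum was CSPG4, at 325.5 and 213.6 CPM with XRN2 siRNA, against 316 to 452 CPM in the 4 others, which overlapped. PDGFRB of the same list was at 21.8 and 26.3 CPM with XRN2 siRNA, against 13.9 to 17.7 CPM in the 4 others, and did not pass. The 8 endothelial markers summed to 8.13 to 9.45 CPM with XRN2 siRNA, against 3.63 to 4.56 CPM, and none passed. Among them VWF was at 3.66 and 4.55 CPM, against 1.21 to 2.03 CPM, KDR at 1.36 and 2.10 CPM, against 0 to 1.12 CPM, PECAM1 at 1.49 and 1.58 CPM, against 0.760 to 1.76 CPM, and CDH5 under 1 CPM. The 8 blood cell markers summed to 2.28 to 6.23 CPM, against 8.36 to 10.7 CPM, and the 6 epithelial markers to 56.7 to 72.5 CPM, against 82.7 to 122 CPM. The 9 glioma and neural stem markers summed to 3225 to 4123 CPM in LN229 XRN2 siRNA libraries, against 4827 to 6262 CPM, and the 12 endoplasmic reticulum stress genes to 2632 to 3215 CPM, against 3546 to 4461 CPM, with no gene of either list passing. In U251 the fibroblast and pericyte markers summed to 1549 to 1598 CPM with XRN2 siRNA, against 977 to 1630 CPM, and the 12 endoplasmic reticulum stress genes to 4464 to 4630 CPM, against 4714 to 33390 CPM. The part of these markers in the collagen results was not tested.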

How the data were processed

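RNA of 2 glioblastoma lines was sequenced in 12 libraries, 6 groups of 2. Per the labels' protocols, libraries were made with the TruSeq RNA v2 kit and read on a MiSeq. Per the file headers, the deposited counts are whole numbers of total, unique and intron reads per gene, beside gene positions and exon lengths. The aligner is not given in the sources used here. GRCh37 and hg19 are the builds in the submitters' processing notes, yet 96.8% of the gene positions equal those of GENCODE 29 (GRCh38), as do 77.3% of the 44 collagen genes; the other 10 differ at an annotated end.

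Total exon counts were scaled by TMM and tested in edgeR 4.0.16 (R 4.3.3) with robust quasi-likelihood F-tests, 1 mean per group, 6 residual degrees of freedom, filterByExpr (minimum count 10, minimum total 15), and Benjamini-Hochberg adjustment over 14232 genes at 0.05. Pooling groups assumes a common spread, which these groups did not show. A chi-square for the difference between replicates, averaged over genes, was 27.2 for U251 mock, 19.4 for LN229 control siRNA and 7.5 for LN229 XRN2 siRNA. It was 2.6 for LN229 mock, 2.5 for U251 control siRNA and 1.7 for U251 XRN2 siRNA. The groups with a wide spread enter every test on all libraries, so few calls do not show that levels were unchanged. The script was tested on simulated data. CPM per kb divides CPM by the deposited exon length in kb. A count of 0 allows 3 reads, and intervals and floors cover counting error only. Members called in any comparison, the 12 most abundant and all chains of types I, IV, V and VI were named, with list genes called in an XRN2 siRNA comparison. Of the 3 most abundant genes of each list only some were named, so these are a selection. In addition, a few list genes (GFAP, S100B, PECAM1, CDH5, VWF, KDR, DCN, PDGFRB, PROM1) were named for what they mark. The members and the 12 gene lists were chosen with earlier results of these data known. Alternatives were DESeq2 1.42.0, its size factors, library sizes alone, other filters, unique reads, an exon length offset, a replicate block, fewer libraries and pooled controls. Promoter sequences are from RefSeq.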

Additional observations from a re-analysis of the deposited data

Results flagged for a closer look

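COL4A4, a type IV chain of specialised basement membranes, was flagged by a rule on CPM alone. Its XRN2 siRNA libraries lay above the 4 others in LN229 and below them in U251, there on 1 to 4 reads per library. In LN229 it had 49 and 39 reads with XRN2 siRNA, against 11 and 21 with control siRNA and 29 and 43 in mock, and in U251 it had 1 and 2 reads with XRN2 siRNA, against 3 and 2 with control siRNA and 3 and 4 in mock. Against mock the LN229 log2 fold change was 0.41 and did not pass in edgeR, and LN229 control siRNA replicate 1, with 11 reads, is the library with the exon length trend. The difference of the log2 responses, LN229 minus U251, was 1.97, and edgeR's test of that difference did not pass (adjusted p = 0.747). The U251 counts lie about the floor of 3 reads, so no direction can be read there.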

How the results depend on the processing

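No called collagen gene changed direction in any alternative; medians near 0 did, as in LN229 control siRNA against mock (−0.10, and 0.03 with the exon length offset). The count of collagen genes called between the lines was 30 and ran from 27 to 32 over all alternatives. COL28A1 lost its call in 3 of them, and the filter of at least 5 CPM in 2 libraries left COL9A1, COL17A1 and COL28A1 untested. For LN229 XRN2 siRNA against control siRNA the count of 6 became 13 without a filter on low counts, 10 against the mean of mock and control siRNA, 0 with the libraries of the line alone, and 0 to 17 with a library left out. Against mock the count of 5 became 9 in DESeq2, 12 without the filter and 0 with the libraries of the line alone. In U251 against control siRNA the count of 0 became 1 in DESeq2, without the filter and with the exon length offset. It was also 1 with the libraries of the line alone and against the mean of both controls. Against mock the count of 1 became 3 without the filter. LN229 control siRNA against mock went to 1 without the filter. The test of the difference between the lines went to 1 in DESeq2, 3 without the filter and 0 to 8 with a library left out. The cause was not tested. Leaving out a library leaves a group with 1 sample, which is assumed to vary like the others, so the counts of such fits are not given.

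Same-numbered libraries deviated together with correlations of −0.038 to 0.066, so no pairing by number was seen. With 2 libraries per group these correlations cannot tell whether same-numbered libraries came from 1 culture or batch. With a replicate block the counts were 7 and 4 in LN229 against control siRNA and mock, 0 and 1 in U251, 0 in both tests of control siRNA against mock, 29 between the lines and 0 for the difference in response. Genes with few reads per library, such as COL13A1, COL28A1 and COL4A4, are limited by depth.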
